A study of Drosophila melanogaster with 8 samples.

Results

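The glycolysis enzymes described here are 10 *Drosophila* genes that encode the enzymes from hexokinase to pyruvate kinase: Hex-A, Pfk, Ald, Tpi, Gapdh1, Gapdh2, Pgk, Pglym78, Eno and PyK. They were found by their symbols in the deposited CuffDiff tables of the pupal central nervous system (CNS), which list 13989 genes, and all 10 were present. All 10 were also among the 9668 genes with a mean FPKM (fragment counts corrected for the length of the transcript and for sequencing depth) of at least 1 over the 4 groups, which are the genes used for comparison below. Wild type CNS was from Canton S at 36 h and at 72 h after puparium formation (APF). Knockdown CNS was from ElavC155GAL4; dStimRNAi/tubulinGAL80ts animals, in which the pan-neuronal elav driver expresses an RNAi transgene against dStim, the calcium sensor of the endoplasmic reticulum in store-operated calcium entry (SOCE), once the temperature-sensitive GAL80 is inactivated at 29 °C. It was taken at 36 h APF after 24 h of knockdown, and at 72 h APF after 24 h of knockdown and 36 h of recovery. Each group had 2 samples of about 10 pooled CNS, and animals were reared at 25 °C outside the knockdown period according to the sample labels. Canton S carries neither the driver nor the RNAi transgene, so the knockdown cannot be told apart from the genetic background. The labels list 29 °C as the knockdown temperature for the wild type groups too. The study's text does not say whether Canton S for sequencing was also kept at 29 °C. If it was not, temperature cannot be told apart from the knockdown either. The driver is neuronal whereas the dissected CNS also holds glia.

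The deposited tables hold 1 FPKM per gene and group, pooled over both replicates. The spread between replicates and the depth of each sample are therefore unknown here, no SD or test is given, and every difference below describes pooled values. Ratios were computed from FPKM after adding a pseudocount of 0.1. A 1.5-fold difference was used as a rule of size. Each age has its own table, which was normalized separately, so ratios between ages are given as deposited and also relative to the median of the 9668 genes. That median, as deposited, was -0.39 on the log2 scale from 36 h to 72 h in wild type and -0.40 after knockdown. Shares of all genes past 1.5-fold between ages were computed only relative to this median. Counts as deposited are therefore given below without such a share.

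Glycolysis splits a hexose sugar into pyruvate and yields ATP and NADH. Hexokinase and phosphofructokinase spend ATP at the start, GAPDH passes electrons to NAD+, and phosphoglycerate kinase and pyruvate kinase make ATP. The steps of hexokinase, phosphofructokinase and pyruvate kinase are practically irreversible and are the classical points of control. In the insect nervous system, sugar arrives from the haemolymph mostly as trehalose through the glial blood-brain barrier, and glia are known for strong glycolysis that supplies neurons with fuel for their mitochondria.

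The targeted gene dStim (listed as Stim) stood at 42.2 FPKM in wild type and 33.9 after knockdown at 36 h APF, against 38.6 and 31.3 at 72 h APF. Its ratio to wild type was 0.803 at 36 h and 0.810 at 72 h. In these pooled FPKM the target thus lay as far below wild type in the group labelled recovery as in the knockdown group. By this measure it went against the label. The study, which also measured dStim by quantitative PCR, reported its expression as restored at 72 h. The FPKM ratio has no replicate values and was not set against genes of similar transcript length. The name recovery is kept below only as that label. The pooled wild type value at 72 h stands apart from the other groups by transcripts of the male germline. A list of 12 testis genes, chosen after values were seen, had a summed FPKM of 96.9 there, against 1.74 and 2.78 at 36 h and 0.388 after recovery. The ratio of knockdown to wild type also varied with transcript length. At 72 h the median log2 ratio was -0.18 in the shortest of 20 bins of genes and 0.49 in the longest, and at 36 h it was -0.09 and 0.17. The ratios of the members to wild type are for this reason also given relative to genes of similar length.

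The members of the upper part of the pathway started from very different levels. Hex-A, the hexokinase that phosphorylates glucose (chrX:9479918-9482434 of dm3), stood at 27.3 FPKM in wild type and 26.0 after knockdown at 36 h APF, against 58.8 and 78.7 at 72 h APF. Pfk, the phosphofructokinase that commits sugar to glycolysis (chr2R:5997245-6004696), stood at 23.9 and 20.4 FPKM at 36 h APF, against 158 and 187 at 72 h APF. These 2 genes were the lowest of the 10 at 36 h, close to the median of 21.7 over the 9668 genes in wild type. At 72 h Hex-A was the lowest in both groups, and Pfk was the second lowest in wild type and the third lowest after recovery.

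Ald, the aldolase that splits the sugar into triose phosphates (chr3R:22080404-22087313), stood at 200.1 FPKM in wild type and 164 after knockdown at 36 h APF, against 709.8 and 751 at 72 h APF. Tpi, the isomerase that interconverts these trioses (chr3R:25958698-25960321), stood at 119 and 99.5 FPKM at 36 h APF, against 397 and 376 at 72 h APF. For each of these 4 genes both values at 72 h lay above both values at 36 h. Ald and Tpi were between the 88th and the 95th percentile of the 9668 genes at 36 h, and Ald was near the 98th percentile at 72 h in wild type.

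Of the 2 GAPDH genes, Gapdh2 was the more abundant in every group. Gapdh2 (chrX:15762178-15763694) stood at 392 FPKM in wild type and 318 after knockdown at 36 h APF, against 1050.3 and 880.2 at 72 h APF, the highest of the 10 members in each group. Gapdh1 on 2R stood at 115.3 and 87.5 FPKM at 36 h APF, against 529.9 and 468 at 72 h APF. Both encode glyceraldehyde-3-phosphate dehydrogenase, and how the authors' pipeline shared out reads that fit both copies is not given in the sources used here. The share of Gapdh1 in their sum was 22.7% in wild type and 21.6% after knockdown at 36 h APF, against 33.5% and 34.7% at 72 h APF. The share was thus higher at 72 h in both genotypes, while knockdown and wild type of the same age differed little in it.

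The remaining members carry triose phosphate to pyruvate. Pgk, which makes ATP as phosphoglycerate kinase, stood at 117 FPKM in wild type and 103 after knockdown at 36 h APF, against 194 and 169 at 72 h APF. Pglym78, a phosphoglycerate mutase, stood at 108 and 113 FPKM at 36 h APF, against 581 and 594 at 72 h APF. The 2 genes thus had nearly the same level at 36 h, whereas Pglym78 lay well above Pgk at 72 h. Eno, the enolase, stood at 207 and 224 FPKM at 36 h APF, against 571 and 563 at 72 h APF. PyK, the pyruvate kinase (chr3R:18193234-18198464), stood at 59.4 and 53.3 FPKM at 36 h APF, against 609 and 620.3 at 72 h APF. PyK therefore passed from the third lowest of the 10 members at 36 h to the third highest at 72 h in both genotypes.

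**Figure D1:**
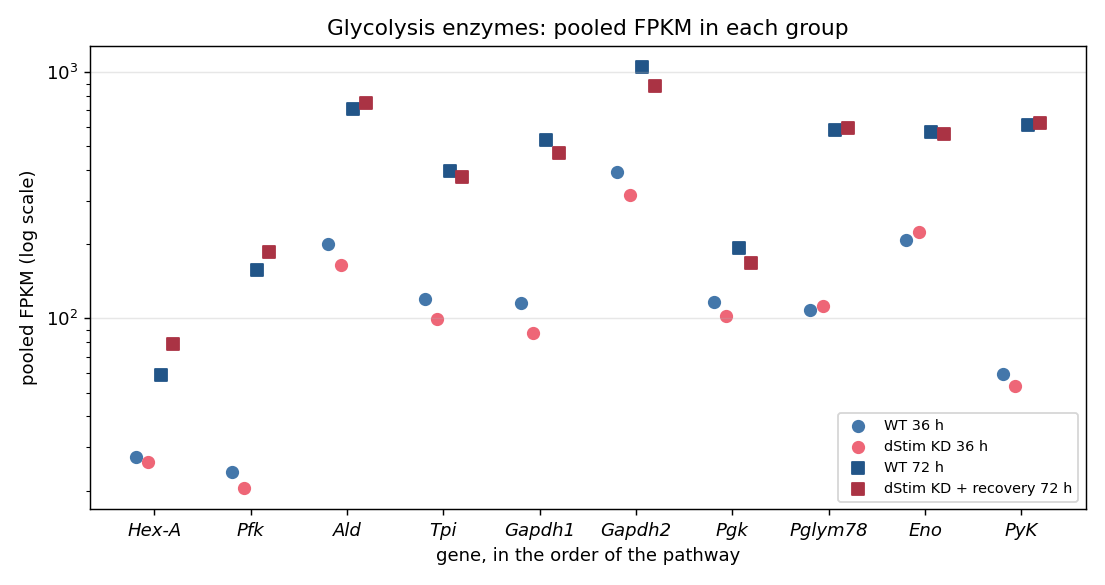
Pooled FPKM (log scale) of each glycolysis enzyme in the 4 groups (wild type and dStim knockdown at 36 h APF, wild type and knockdown with recovery at 72 h APF), with 1 point per group, genes in the order of the pathway and no error bars since replicates were pooled. Both points at 72 h lie above both points at 36 h for all 10 genes, from a Hex-A value of 27.3 against 58.8 to a PyK value of 59.4 against 609 in wild type.

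The loci listed for Gapdh1, Pgk, Pglym78 and Eno hold other genes as well, and the library kit does not mark the strand, so reads in any overlap cannot be assigned with certainty. Gapdh1 is listed together with CG1553 and mus205, Pgk with Cwc25, Pglym78 with ligatin and Eno with Rrp40. In wild type none of these neighbours was higher at 72 h as deposited. The FPKM of CG1553 was 90.1 in wild type at 36 h and 19.3 at 72 h, and Rrp40 was at 14.3 and 5.37. For Cwc25 and ligatin the log2 ratio of 72 h to 36 h in wild type was -0.50 and -0.59. Coordinates are printed here only for the 6 members that are alone in their listed locus.

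All 10 glycolysis enzymes were higher at 72 h than at 36 h in wild type CNS. As deposited, PyK differed most, at 10.2-fold, followed by Pfk at 6.57-fold, Pglym78 at 5.38-fold and Gapdh1 at 4.59-fold. Ald was 3.55-fold, Tpi 3.32-fold, Eno 2.75-fold, Gapdh2 2.68-fold and Hex-A 2.15-fold higher, and Pgk, at 1.66-fold, differed least. Relative to the median gene, all 10 members were higher by at least 1.5-fold, which held for 28.7% of the 9668 genes. All 10 were also higher by at least 2-fold on this scale, which held for 19.5% of the genes. The median log2 ratio of the members was 2.17 relative to the median gene, or 1.78 as deposited.

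A like ordering was seen in the knockdown libraries, which share no sample with wild type. When recovered CNS at 72 h was set against knockdown CNS at 36 h, PyK was 11.6-fold, Pfk 9.09-fold, Gapdh1 5.34-fold and Pglym78 5.28-fold higher as deposited. Ald was 4.57-fold, Tpi 3.77-fold, Hex-A 3.02-fold, Gapdh2 2.77-fold, Eno 2.52-fold and Pgk 1.64-fold higher. Again all 10 members were higher by at least 1.5-fold relative to the median gene, against 30.1% of the genes, and all 10 by at least 2-fold, against 20.6%. Their median log2 ratio was 2.45 on this scale, or 2.05 as deposited. This comparison does not use the wild type value at 72 h with its testis transcripts. For 7 of the 10 members the ratio of the ages was larger in knockdown than in wild type CNS, and the widest gaps were those of Hex-A and Pfk, at 0.49 and 0.47 on the log2 scale, where 51.3% of the genes had the larger ratio in knockdown CNS. Relative to genes of similar length, 9 of 10 members and 50.3% of the genes did, and the gaps of Hex-A and Pfk, both 0.30, lay below those of Ald, Tpi and Gapdh1, at 0.34, 0.33 and 0.32. The transcript length used for Hex-A exceeds its listed locus, so its gap on this scale is uncertain. Across the 10 members, which are not replicates, the log2 ratios of both genotypes correlated with a Pearson r of 0.97 and a Spearman rho of 0.94.

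**Figure D2:**
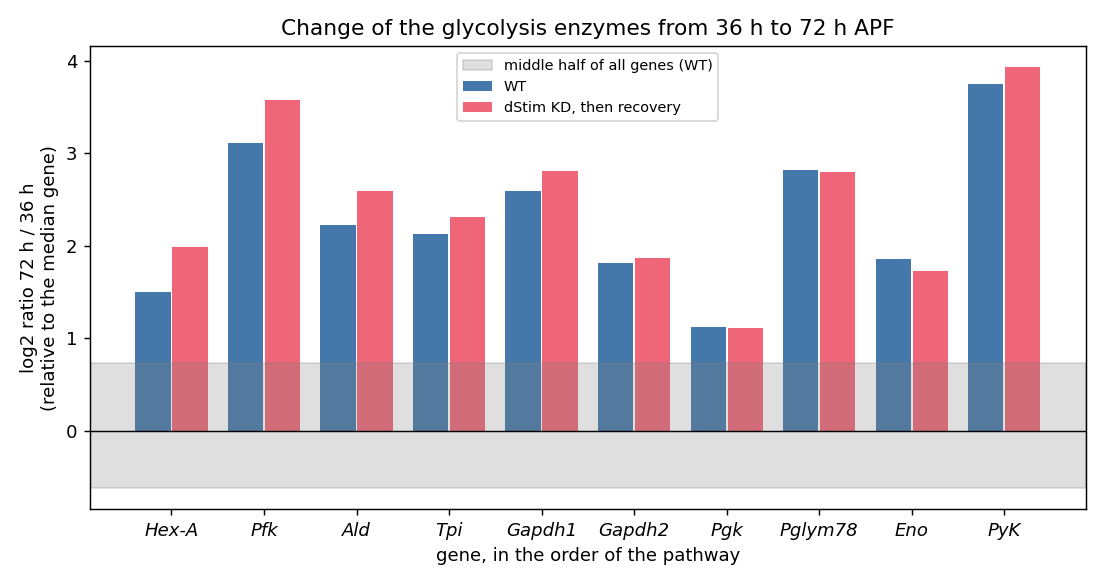
Log2 ratio of 72 h to 36 h of each glycolysis enzyme, relative to the median of all genes, in wild type (blue bars) and in knockdown followed by recovery (red bars), with a grey band from the lower to the upper quartile of the 9668 genes in wild type. All bars reach above the band, whose upper edge is at 0.74, from 1.12 for Pgk to 3.75 for PyK in wild type.

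The ratios between members differed with age. The FPKM of PyK was 0.509 times that of Pgk in wild type at 36 h and 3.14 times at 72 h, and in knockdown CNS these ratios were 0.520 and 3.68. Both enzymes make ATP. In wild type CNS, Pfk stood at 0.874 times the FPKM of Hex-A at 36 h and at 2.68 times at 72 h. In knockdown CNS, the ratio of Pfk to Hex-A was 0.786 and 2.37. PyK stood at 0.550 times the level of Pglym78 at 36 h in wild type and at 1.05 times at 72 h. The SD of log2 FPKM over the 10 members was 1.27 at 36 h and 1.26 at 72 h in wild type, and 1.26 and 1.12 in knockdown CNS. The Spearman rho between the FPKM of the 10 members at 36 h and at 72 h was 0.61 in wild type and 0.65 after knockdown. Between the genotypes it was 0.92 at 36 h and 0.99 at 72 h. These correlations describe 10 genes that share their libraries. As the spread between replicates is unknown, neighbours in these orders cannot be said to differ.

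Together the 10 members took up 0.216% of the summed FPKM in wild type and 0.195% after knockdown at 36 h APF, against 0.765% and 0.758% at 72 h APF. Their summed FPKM was 3.55 times as high at 72 h as at 36 h in wild type and 3.88 times as high in knockdown CNS. In wild type PyK ranked 2042 among the 9668 genes at 36 h and 192 at 72 h, and Pfk ranked 4552 and 709.

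Markers of several cell types were in part higher and in part lower at 72 h. In bulk tissue, more cells of a type and more RNA per cell cannot be told apart. The glial genes Gs2 (glutamine synthetase), Eaat1 (a glutamate transporter) and nrv2 (a subunit of the sodium pump) had an FPKM of 289, 153 and 179 in wild type at 36 h, against 1980.3, 952 and 1407 at 72 h. The glial identity gene repo was lower, at 57.7 and 37.5, as were wrapper, at 28.4 and 21.6, and Gli, at 16.5 and 7.56. Of 8 glial markers with a mean FPKM of at least 1, 5 were higher by at least 1.5-fold relative to the median gene in wild type. After knockdown 3 were, and as deposited 4 and 3 were. Relative to the median gene, 1 glial marker was lower by as much in wild type and 2 after knockdown. Over the 9668 genes, 28.7% were higher by as much on this scale in wild type and 30.1% after knockdown. Of 10 neuronal markers 6 and 7 were higher by as much, or 5 and 7 as deposited. Gad1 (glutamate decarboxylase) was at 57.8 and 735 in wild type, while elav was at 76.7 and 25.5. Of 10 retinal markers 7 and 6 were higher by as much, or 6 in each genotype as deposited, with the rhodopsin gene ninaE at 0.344 and 225 in wild type. The other 3 were lower by at least 1.5-fold in wild type, with chp at 104 and 37.8, inaC at 57.3 and 26.2 and w at 88.0 and 4.94.

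Muscle, which is rich in glycolytic enzymes, can adhere to a dissected CNS. Of 16 muscle markers, 12 were higher by at least 1.5-fold relative to the median gene at 72 h in wild type and 14 after knockdown. Over the 9668 genes these shares were 28.7% and 30.1%. Their summed FPKM was 533 in wild type and 414 after knockdown at 36 h APF, against 1798 and 1466 at 72 h APF, and no marker was at 0. Tm1, which is also expressed outside muscle, held 318 of the 533 at 36 h. The myosin heavy chain gene Mhc had an FPKM of 15.1 in wild type at 36 h and 52.2 at 72 h, and Mlc2, a myosin light chain, of 28.3 and 166. The part of muscle, glia or retina in the higher levels of the glycolysis enzymes was not tested.

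At 36 h APF, directly after dStim knockdown, the glycolysis enzymes lay slightly below wild type and none differed by 1.5-fold. The FPKM was lower in knockdown CNS for 8 of the 10 members, where 49.8% of the 9668 genes were lower by any size. Gapdh1 had the lowest ratio, 0.759, followed by Gapdh2 at 0.812, Ald at 0.821, Tpi at 0.833 and Pfk at 0.857. For Pgk the ratio was 0.877, for PyK 0.897 and for Hex-A 0.951. Eno and Pglym78 lay above wild type, at 1.08 and 1.04. No member was past 1.5-fold, whereas 6.75% of the genes were lower and 5.94% higher by as much. The median log2 ratio of the members was -0.21, and that of all genes was 0.00.

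Transcript length moved these values little. Relative to genes of similar length, the median log2 ratio of the members was -0.17 and 8 of 10 were again below 0, from -0.35 for Gapdh1 to 0.13 for Eno. With both GAPDH genes summed, the ratio of knockdown to wild type was 0.800 at 36 h. Without replicate values, differences of this size cannot be set against the variation between samples.

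**Figure D3:**
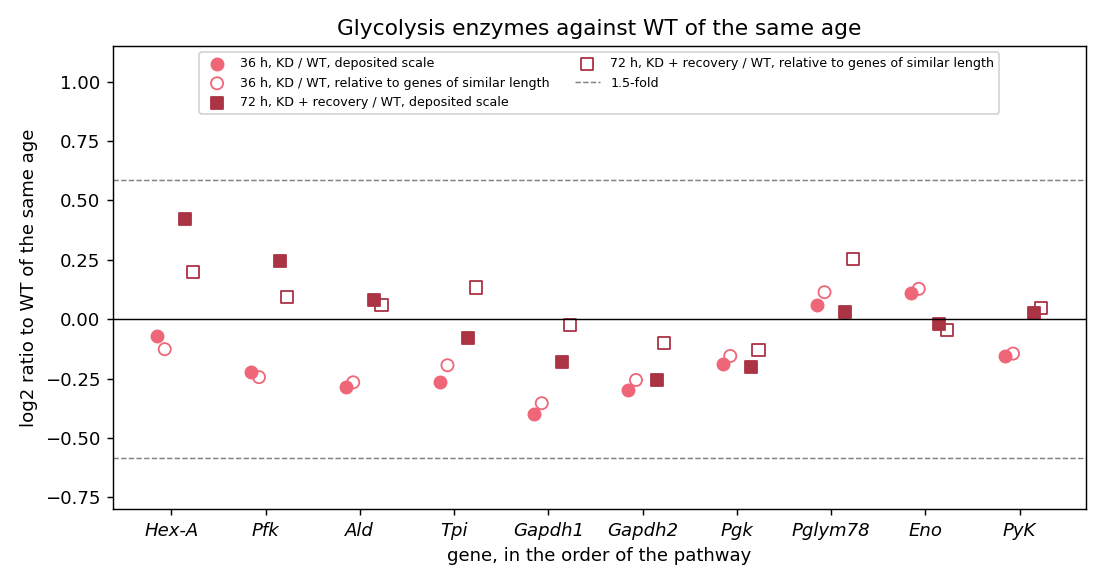
Log2 ratio of knockdown to wild type of the same age for each glycolysis enzyme at 36 h (circles) and, after recovery, at 72 h (squares), as deposited (filled) and relative to genes of similar transcript length (open); dashed lines mark 1.5-fold. All points lie between the lines, from -0.40 for Gapdh1 at 36 h to 0.42 for Hex-A at 72 h, and the values for Hex-A and Pfk at 72 h are closer to 0 relative to genes of similar length. For Hex-A the length used exceeds its listed locus, so its open points are uncertain.

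The markers of muscle were lower in the same comparison by far more than the glycolysis enzymes. Of the 16 muscle markers 14 were lower by at least 1.5-fold in knockdown CNS at 36 h, against 6.75% of the 9668 genes, with a median log2 ratio of -1.14. Mhc stood at 15.1 FPKM in wild type against 5.91 after knockdown, and Act79B, an actin gene of muscle, at 16.4 against 1.63. Of 5 tracheal markers 3 were lower by as much, with Gasp, a chitin-binding protein of the tracheal lining, at 121 and 40.6. The other 2 were slightly higher after knockdown, with btl at 0.421 and 0.487 FPKM and trh at 6.30 and 6.60. The median log2 ratio was 0.12 for 10 neuronal and 0.21 for 8 glial markers. Relative to genes of similar length it was -0.08 for the 9 neuronal markers with a length, of which 6 were lower, and 0.20 for the glial markers. The part of muscle or trachea in the lower values of the 8 glycolysis enzymes was not tested.

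At 72 h APF, in the group labelled recovery, the glycolysis enzymes lay on both sides of wild type. Of the 10 members 5 were lower and 5 higher as deposited, where 51.3% of the genes were lower. This count includes Eno, Pglym78, PyK and Tpi, whose sign differed between settings. Scaled to the same upper quartile 7 of the 10 were lower, and scaled to the same summed FPKM 4 were. The median log2 ratio of the members was 0.00 against -0.01 for all genes. The ratio was 1.34 for Hex-A, 1.19 for Pfk, 1.06 for Ald, 1.02 for Pglym78 and 1.02 for PyK. It was 0.985 for Eno, 0.947 for Tpi, 0.883 for Gapdh1, 0.869 for Pgk and 0.838 for Gapdh2. None was past 1.5-fold, and 10.4% of the genes were lower and 8.03% higher by as much.

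The ratios of the members at 72 h went with transcript length. Hex-A, with a longest transcript of 4139 nt, and Pfk, with 3508 nt, had the highest ratios, whereas Gapdh1 and Gapdh2 have 1480 and 1443 nt. The length of Hex-A comes from a later annotation and exceeds its dm3 locus of 2517 bases. Its value relative to length is therefore uncertain, and the correlations with length include this point. Across the 10 members the Pearson r between log2 length and log2 ratio was 0.77 at 72 h (Spearman rho 0.61) and 0.17 at 36 h (rho 0.27), given as a description over genes of the same libraries. Relative to genes of similar length, the log2 ratio of Hex-A was 0.20 in place of 0.42, that of Pfk 0.10 in place of 0.24 and that of Gapdh2 -0.10 in place of -0.25. On that scale the highest value was 0.25, of Pglym78, and the lowest -0.13, of Pgk. The signs of Tpi, Pglym78, PyK and Eno at 72 h differed between settings, so no direction is given for these 4 genes.

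At both ages Gapdh1, Gapdh2 and Pgk were below wild type, as deposited and relative to genes of similar length. For Hex-A, Pfk and Ald the ratio was below 1 at 36 h and above 1 at 72 h on both scales. The difference between the ages was not tested. All 10 neuronal markers were higher after recovery than in wild type at 72 h as deposited, where 4635 of the 9668 genes were, with a median log2 ratio of 0.52. Against genes of similar length, 7 of 9 were higher and the median was 0.19. The 16 muscle markers were mixed at 72 h, with 5 higher and 3 lower by at least 1.5-fold, where 8.03% of all genes were higher and 10.4% lower by as much. All 10 retinal markers were higher after recovery as deposited, with a median log2 ratio of 0.51, while relative to genes of similar length 9 were higher and the median was 0.24. The highest ratio among them, 17.3, was that of w, at 4.94 FPKM in wild type and 87.3 after recovery. At 36 h w was at 88.0 and 222. Whether w marks retina here or the genetic background was not tested. The part of these cell types in the ratios of the members was not tested.

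**Figure D4:**
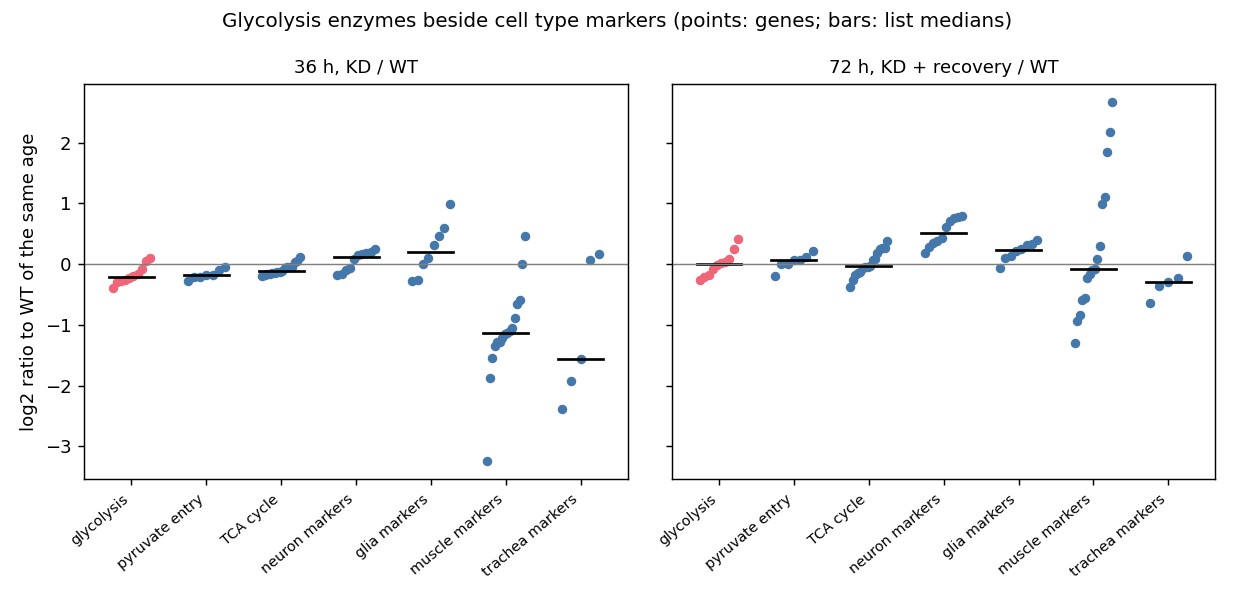
Log2 ratio of knockdown to wild type of the same age at 36 h (left) and at 72 h after recovery (right) for each gene of 7 lists, with 1 point per gene and a bar at the list median; glycolysis enzymes are in red. At 36 h the median is -0.21 for the glycolysis enzymes and -1.14 for the muscle markers, and at 72 h the medians are 0.00 and -0.08.

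The reactions next to glycolysis were compared by lists of their genes. Of 8 genes at branches of glycolysis or in the recycling of NAD+, Pgi, the isomerase between hexokinase and phosphofructokinase, had an FPKM of 50.04 in wild type at 36 h and 193 at 72 h. Gpdh, the glycerol-3-phosphate dehydrogenase that reoxidizes NADH in the cytosol, was at 26.4 and 127. Lactate dehydrogenase (ImpL3), which reoxidizes NADH by another route, had an FPKM of 6.34 at 36 h and 4.19 at 72 h in wild type. Gpdh and Pgi were thus higher at 72 h, as the members were, and ImpL3 was low at both ages. The gluconeogenic fructose-bisphosphatase gene fbp, which opposes Pfk, was at 17.7 and 2.46. In knockdown CNS fbp was at 20.9 and 3.05.

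Sugar supply differed less with age than glycolysis did. Of 9 such genes with a mean FPKM of at least 1, 6 were higher by at least 1.5-fold relative to the median gene in wild type, against 28.7% of the 9668 genes. The median log2 ratio of the 9 was 0.67. As deposited, 1 of the 9, CG9485, was higher by as much, and the median was 0.27. GlyP, glycogen phosphorylase, had an FPKM of 65.3 in wild type at 36 h and 93.3 at 72 h, and the trehalose transporter gene Tret1-1 was at 8.49 and 10.6. CG9485, which the tables name by this symbol only, was at 7.71 and 30.2. After recovery, Glut1, a glucose transporter, had an FPKM of 181 against 122 in wild type at 72 h, a ratio of 1.49. Its log2 ratio was 0.09 relative to genes of similar length in place of 0.58, below those of Tret1-1 and GlyP, at 0.33 and 0.30.

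The genes of the pentose phosphate pathway, which draws on the same glucose 6-phosphate, were mostly below the median gene, 6 of 7 in each genotype. Of 7 genes 3 were lower by at least 1.5-fold relative to the median gene in wild type and also in knockdown CNS, and none was higher by as much in either. Of the 9668 genes, 2534 were lower by as much in wild type and 2808 in knockdown CNS. As deposited, 5 of the 7 were lower by as much in wild type and 4 after knockdown, where the share of all genes was not computed. Zw, the glucose-6-phosphate dehydrogenase at its entry, had an FPKM of 5.98 at 36 h and 0.985 at 72 h in wild type, and of 6.59 and 0.774 in knockdown CNS. Transketolase (CG8036) was at 84.5 and 21.9 in wild type, and at 107.5 and 28.5 in knockdown CNS.

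The genes that take pyruvate into the mitochondrion were higher at 72 h, by less than PyK. All 7 genes of the carrier and the pyruvate dehydrogenase complex with its kinase were higher by at least 1.5-fold relative to the median gene in both genotypes, with a median log2 ratio of 1.54 in wild type and 1.76 after knockdown. Of the 9668 genes, 28.7% were higher by as much in wild type and 30.1% after knockdown. The carrier gene Mpc1 (CG14290) had an FPKM of 35.4 and 109, and Pdha (l(1)G0334), of the pyruvate dehydrogenase complex, 126 and 333 in wild type. Of 16 genes of the tricarboxylic acid (TCA) cycle and cytosolic malate dehydrogenase, 15 were higher by at least 1.5-fold in each genotype on this scale, against the same shares of all genes. As deposited 11 were, where the share of all genes was not computed. Relative to the median gene, the median log2 ratio of the 16 was 1.18 in wild type and 1.35 after knockdown. Citrate synthase (kdn) was at 184 and 405 in wild type, and Mdh1 (CG5362), the cytosolic malate dehydrogenase, at 86.5 and 329. The summed FPKM of the TCA cycle list exceeded that of the glycolysis enzymes at 36 h, at 2264 against 1369 in wild type, and lay below it at 72 h, at 3986 against 4859, with lists of unequal size.

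In the knockdown comparison at 36 h, these lists lay below wild type by about as little as the glycolysis enzymes. All 7 genes of pyruvate entry and 13 of 16 genes of the TCA cycle list were lower, where 49.8% of the 9668 genes were. Their median log2 ratios were -0.18 and -0.12. None was past 1.5-fold, while 6.75% of all genes were lower and 5.94% higher by as much. At 72 h the medians of these 2 lists were 0.07 and -0.03, with 6 of 7 and 7 of 16 genes higher, where 4635 of the 9668 genes were. Relative to genes of similar length, the medians were 0.16 and 0.10, with 7 of 7 and 13 of 16 genes higher, so the direction of the TCA cycle list depended on the scale.

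**Figure D5:**
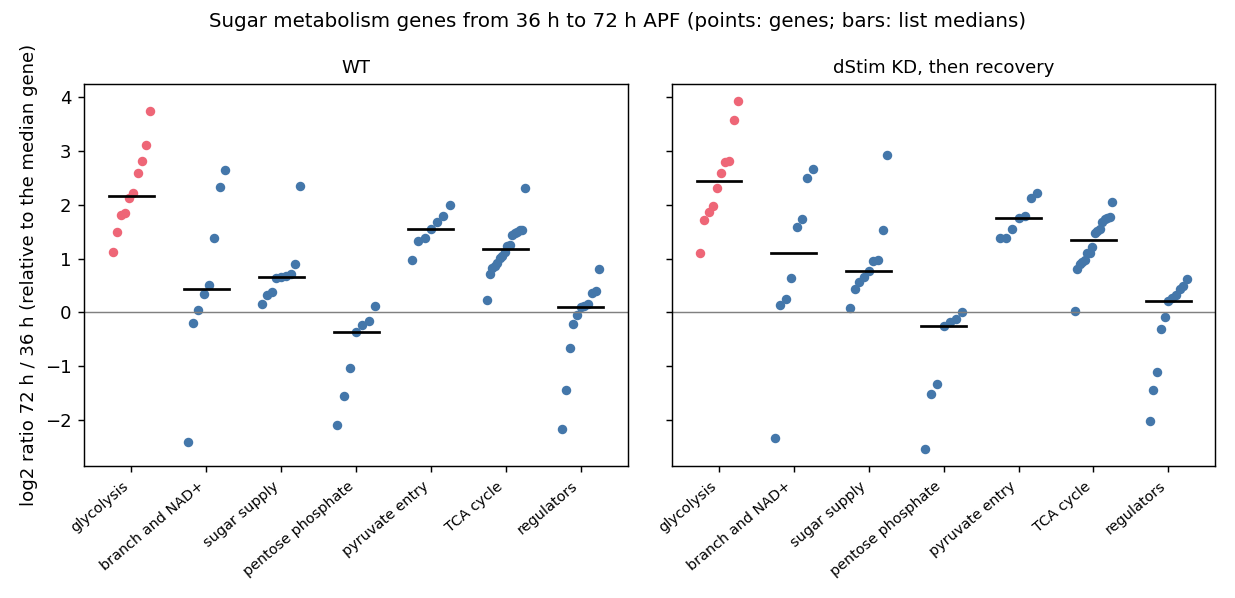
Log2 ratio of 72 h to 36 h, relative to the median of all genes, for each gene of the glycolysis enzymes (red) and of 6 other lists in wild type (left) and in knockdown followed by recovery (right), with 1 point per gene and a bar at the list median. In wild type the medians are 2.17 for the glycolysis enzymes, 1.54 for pyruvate entry, 1.18 for the TCA cycle and -0.36 for the pentose phosphate pathway.

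Of 11 transcription factors and other regulators known to act on glycolytic genes, mostly from other stages and tissues, 1 was higher and 3 were lower by at least 1.5-fold relative to the median gene at 72 h in wild type, and 0 and 4 as deposited. Relative to the median gene, 2779 of the 9668 genes were higher and 2534 lower by as much. The share of all genes as deposited was not computed. The nuclear receptor gene ERR, known to drive glycolytic genes in fly larvae, stood at 17.6 FPKM in wild type and 17.9 after knockdown at 36 h APF, against 17.2 and 18.5 at 72 h APF. The 4 values for ERR are nearly the same as deposited. Relative to the median gene, its log2 ratio of 72 h to 36 h was 0.36 in wild type and 0.44 after knockdown. The part of ERR in the levels of the members was not tested. The hypoxia factor gene sima stood at 30.7 in wild type and 40.002 after knockdown at 36 h APF, against 30.8 and 43.0 at 72 h APF, with ratios to wild type of 1.30 and 1.40. With length taken into account, the log2 ratio of sima was 0.28 in place of 0.38 at 36 h and 0.13 in place of 0.48 at 72 h. Myc (listed as dm) was at 6.56 and 1.03 in wild type at 36 h and 72 h, and crp at 105 and 29.3.

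A further 13 genes were listed as candidate copies of the members elsewhere in the genome. Only CG7059 and CG12229, which the tables name by these symbols only, had a mean FPKM of at least 1 among them. CG7059 stood at 34.6 and 32.9 FPKM at 36 h APF, above Hex-A and Pfk, against 12.8 and 9.38 at 72 h APF. It was thus lower with age, while all 10 members were higher. In 9 of the 13 genes, most of which had a mean FPKM below 1, the highest value was that of wild type at 72 h, the group with the testis transcripts. The share of all genes with their highest value in that group was not computed, so the count is a description only. Pglym87, a phosphoglycerate mutase gene chosen after its values were seen, was at 2.94 there, at 0.0646 in wild type at 36 h, and listed at 0 in both knockdown groups.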

How the data were processed

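RNA from pupal CNS was sequenced by the authors in 8 samples, 2 in each of 4 groups, which were taken from the sample titles. Per the labels and the study's methods, the authors aligned reads to dm3 with TopHat2 2.0.11 and with Cuffdiff 2.2.0 deposited a geometrically normalized FPKM for each gene, 1 value a group with replicates pooled, in 1 table per age. The same tables hold the authors' fold changes, test statistics, p-values and q-values, and the edgeR tables hold their log2 fold changes with mean abundance, p-values and false discovery rates; neither was used here. Depth per sample is unknown from these values.

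From the FPKM, log2 ratios were computed with a pseudocount of 0.1 over the 9668 genes with a mean FPKM of at least 1. Ratios between ages were centred on the median of these genes. For the scale relative to length, the median of 20 bins of the longest transcript in Ensembl release 115 was subtracted (98.2% of the genes had a length). Listed starts count from 0 and were moved by 1 base. The ratio, the centring and the length bins were tested on simulated data. Named genes are the 10 members, and in each other list up to 3 genes with the largest absolute log2 ratio, besides defining markers and genes of known role. The members and lists were chosen with earlier results of these data known, and the testis list after values were seen. Alternatives were pseudocounts, filters, a 2-fold rule, other scalings, summing the GAPDH genes, length, and leaving out members with shared loci. Computation used NumPy 2.4.6 and pandas 2.3.3 in Python 3.11.15, with matplotlib 3.10.9 for plots and SciPy 1.17.1 for correlations.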

Additional observations from a re-analysis of the deposited data

How the results depend on the processing

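Across the alternative settings no value of the glycolysis enzymes past 1.5-fold changed direction. Of 530 recomputed values, which include counts, 527 differed from the values reported above by less than 1.5-fold. Many of them could not change, since for example a 2-fold rule or summing the GAPDH genes leaves the ratio of another gene as it is. The tally is therefore no measure of how stable the results are. The median log2 ratio of 72 h to 36 h lay between 1.77 and 2.18 in wild type and between 2.05 and 2.46 in knockdown CNS. That of knockdown to wild type lay between -0.24 and -0.17 at 36 h and between -0.06 and 0.05 at 72 h, and no setting put a member past 1.5-fold there. Without the 4 members whose listed locus holds other genes, a setting added after the data were seen that leaves 6 members, 6 were higher at 72 h in wild type, 6 in knockdown CNS, and 2 were lower than wild type at 72 h. Scaling to the summed FPKM, the upper quartile, or the median kept the sign of all 10 members at 36 h and between ages, while Eno, Pglym78, PyK and Tpi changed sign at 72 h in at least 1 setting. Without the 100 highest other genes, the share of summed FPKM at 72 h in wild type was 1.05%. No paired analysis was possible because the tables hold 1 value per group, pooled over replicates, and for the same reason no replicate could be left out.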

Other observations

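Gpdh was 4.79-fold and Mdh1 (CG5362) 3.80-fold higher at 72 h than at 36 h in wild type as deposited, and the mitochondrial glycerol-3-phosphate oxidase gene Gpo-1 was at 80.4 and 161 FPKM. In knockdown CNS Gpdh was at 27.5 and 133 FPKM.

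Pepck, the gluconeogenic phosphoenolpyruvate carboxykinase gene, had an FPKM of 4.06 in wild type and 10.1 in the group labelled recovery at 72 h, the only gene past 1.5-fold in that comparison among the 8 branch and NAD+ genes. At 36 h it was at 3.75 and 3.91.

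The testis genes Mst84Da and Mst87F, chosen after their values were seen, had an FPKM of 23.9 and 20.4 in wild type at 72 h and were listed at 0 after recovery. The 12 testis genes were at 1 FPKM or more in 9 cases in wild type at 72 h, in 1 case in wild type at 36 h and in none of the knockdown groups. The replicates behind this pooled value were not analysed here.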
